A study of Mus musculus with 10 samples.

Results

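The axon guidance ligands and receptors of the mouse were taken as every gene of the deposited expression table whose symbol belongs to the ephrins (Efna, Efnb), Eph receptors (Epha, Ephb), semaphorins (Sema), plexins (Plxn), neuropilins (Nrp), Slits, Robos, netrins (Ntn) or the netrin receptors Dcc and Unc5. This gave 68 of 21101 genes, 35 of them ligands and 33 receptors. Of these, 64 (33 ligands and 31 receptors) passed a filter of at least 1 TPM, a unit of transcript abundance scaled to gene length and library, in at least 2 of the 10 libraries, as did 15660 genes in all. Expression was measured by RNA sequencing in cultured neural stem cells that are p53-null and were transduced with mutant IDH1(R132H), which all groups share. Of the 10 libraries, 3 came from Atrx-deleted lines (mA16d#4, mA19d#4 and mA19d#7) after 8 days in differentiation medium, a neural basal medium with B27 and no growth factors. Another 3 came from the same Atrx-deleted lines in proliferation medium, which holds the growth factors EGF and bFGF (20 ng/ml). The 2 control lines (Control NSC#1 and Control NSC#2) gave 2 libraries in differentiation and 2 in proliferation medium. Each line was sequenced once per medium, and the labels leave out how Atrx was deleted, whether a line is 1 clone and whether lines share an animal. The p-values therefore measure the spread between these lines.

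Guidance receptors sit on growth cones and migrating cells and read cues that attract or repel. Ephrins are membrane-bound ligands of the Eph receptor tyrosine kinases and signal at cell contacts in both directions. Class 3 semaphorins are secreted and bind neuropilins, which pair with plexins, whereas classes 4 to 7 are membrane-bound and mostly bind plexins directly. Slits repel through Robo receptors, and netrins attract through Dcc and repel through Unc5 receptors. In neural stem and progenitor cells the same families act in cell migration, positioning and proliferation.

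Atrx, the deleted chromatin remodeller gene, was at 54.4, 47.2 and 54.0 TPM in the Atrx-deleted libraries of differentiation medium and 71.6, 42.8 and 74.0 TPM in those of proliferation medium, below every control library (126.7 to 163 TPM). Transcript of Trp53, the gene of p53, was listed at 52.6 to 133 TPM although all lines are labelled p53-null, and whether a protein is made was not measured. All 7 listed markers of neural stem and progenitor cells were present, with Sox2 at 364 to 705 TPM. Of the 10 neuronal markers, Map2 was at 358 to 903 TPM, Tubb3 at 50.1 to 372 TPM and Dcx at 2.28 to 52.97 TPM, and Elavl3, Rbfox3, Syt1 and Nefm reached at least 10.2 TPM in some library, while Stmn2 stayed at or below 0.324 TPM. Of the listed markers of microglia (6), endothelial and mural cells (6) and fibroblasts (4), the highest were P2ry12 at up to 11.2 TPM, Kdr at 1.18 to 3.41 TPM and Col1a1 at up to 4.41 TPM, while Cx3cr1, Cdh5 and Cldn5 stayed at or below 0.0354 TPM. The summed level of 5 cycling genes was 218 to 518 TPM in Atrx-deleted and 75.7 to 80.7 TPM in control libraries of differentiation medium, and 532 to 807 against 489 to 797 TPM in proliferation medium. The library labelled mA19d#7 in differentiation medium stood apart, and correlated best over all tested genes with the mA16d#4 library in proliferation medium (rank correlation 0.957, against 0.926 with mA19d#7 in proliferation medium). It held the astrocyte gene Gfap at 1411 TPM, against 1.57 to 79.5 TPM in the other 9 libraries. All libraries hold the same set of values, so depth is unknown. In bulk RNA, fewer cells of a type and less RNA per cell cannot be told apart.

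The neural stem cells held transcripts of every guidance family, at levels between the floor of the table and a mean of 385 TPM. The mean over the 10 libraries was at least 100 TPM for 5 genes, 10 to 100 TPM for 32, 1 to 10 TPM for 25 and under 1 TPM for 6. Ntn1, the secreted netrin that attracts axons to the midline, was the highest at 385 TPM, and its level stayed within 218 to 562 TPM. Its attractant receptor gene Dcc averaged 11.7 TPM, and the repellent receptor genes Unc5b, Unc5c, Unc5a and Unc5d averaged 9.80, 7.66, 4.504 and 2.88 TPM. The ligand was thus far more abundant per transcript length than Dcc or any single Unc5 gene. The Dcc relative Neo1, which the symbol rule left out, averaged 106 TPM over the 10 libraries. It was below Ntn1 by much less than these receptor genes were.

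Receptors outweighed ligands in the Slit pathway. Robo1 and Robo2 averaged 47.4 and 35.8 TPM, while Slit1, Slit3 and Slit2 averaged 2.94, 1.44 and 0.261 TPM. Slit2, Robo3, Ntn5 and Epha8 were the 4 genes that did not pass the filter, with maxima of 1.72, 1.62, 2.59 and 1.17 TPM over the 10 libraries. The receptors of class 4 semaphorins were abundant, with Plxnb2 at 189.8 TPM and Plxnb1 at 152 TPM. Among the semaphorins, the membrane-bound Sema6d (129 TPM), Sema5b (99.2 TPM), Sema6a (67.6 TPM) and Sema4b (63.9 TPM) led, ahead of Sema3a (30.6 TPM), the leading secreted one. Of the Eph receptors, Ephb2 (102 TPM), Ephb3 (60.3 TPM) and Epha4 (44.7 TPM), which binds ephrins of both classes, were highest. The ephrins were lower, led by Efnb1 (28.7 TPM) and Efna4 (23.7 TPM). Nrp1 and Nrp2, the binding subunits for class 3 semaphorins, averaged 25.2 and 22.5 TPM, Plxnc1, a receptor of Sema7a, 19.7 TPM, and Sema7a itself 3.56 TPM. Of the members not described further, the class 4 semaphorin genes Sema4g and Sema4f averaged 51.4 and 0.233 TPM, Sema6c 6.87 TPM and the secreted Sema3g 0.564 TPM. The receptor genes Epha5, Epha2, Epha1 and Ephb6 averaged 21.7, 2.03, 1.32 and 1.55 TPM, and Robo4, known from endothelium, 1.12 TPM.

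**Figure D1:**
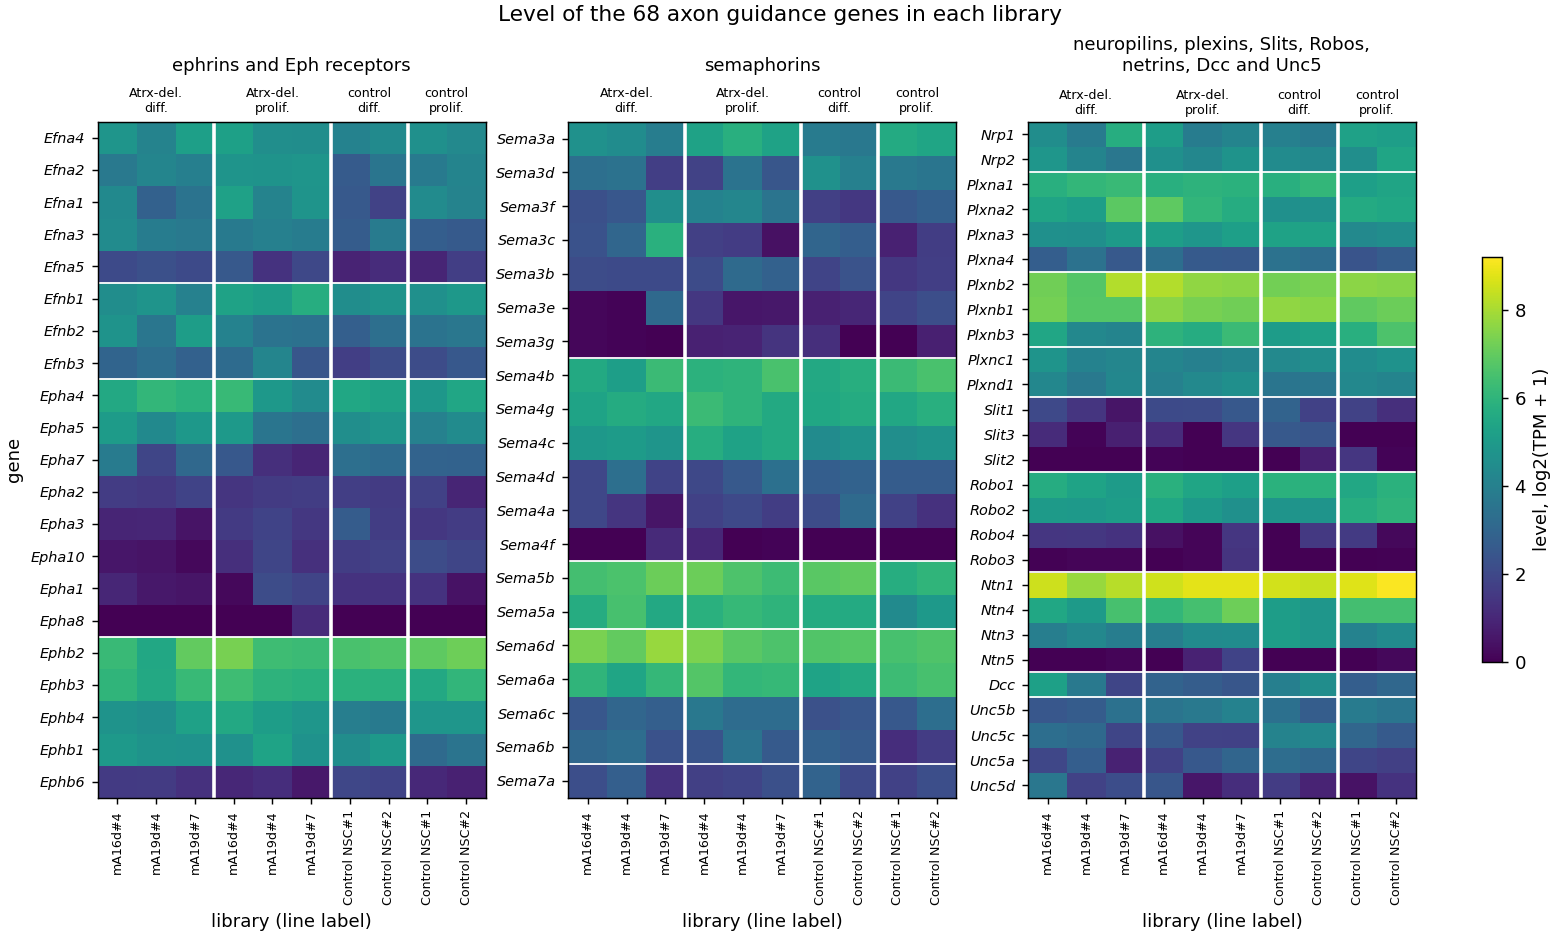
Level of each of the 68 genes, as colour on a scale of log2(TPM + 1), with 1 column per library and genes sorted by mean level within a family; white lines separate the 4 groups of libraries and the families. Ntn1, Plxnb2, Plxnb1 and Sema6d are bright in all 10 libraries, and Epha8, Slit2 and Robo3 are dark in nearly all.

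The 5 genes that passed in at least 1 comparison (adjusted p under 0.05) are shown by their promoter windows, since they carry the results that follow. Each window runs from 250 bases before to 50 after the start of transcription (RefSeq, GRCm38.p6), and is the annotated start nearest to that of the principal coding transcript of GENCODE M21. The windows are chr9:102354644-102354943 (minus strand) for Ephb1, chr11:35121206-35121505 (plus strand) for Slit3, chr5:13396534-13396833 (plus strand) for Sema3a, chr16:74411776-74412075 (minus strand) for Robo2 and chr3:89279596-89279895 (minus strand) for Efna1. Sequences run 5′ to 3′, and capitals mark the box GGGCGG, the core of the GC box, on either strand.
Ephb1: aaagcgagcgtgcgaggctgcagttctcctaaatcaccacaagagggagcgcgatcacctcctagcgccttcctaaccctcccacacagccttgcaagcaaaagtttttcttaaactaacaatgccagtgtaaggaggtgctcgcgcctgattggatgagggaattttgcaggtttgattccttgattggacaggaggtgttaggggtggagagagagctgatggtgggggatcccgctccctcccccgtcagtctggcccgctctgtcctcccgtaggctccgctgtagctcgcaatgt
Slit3: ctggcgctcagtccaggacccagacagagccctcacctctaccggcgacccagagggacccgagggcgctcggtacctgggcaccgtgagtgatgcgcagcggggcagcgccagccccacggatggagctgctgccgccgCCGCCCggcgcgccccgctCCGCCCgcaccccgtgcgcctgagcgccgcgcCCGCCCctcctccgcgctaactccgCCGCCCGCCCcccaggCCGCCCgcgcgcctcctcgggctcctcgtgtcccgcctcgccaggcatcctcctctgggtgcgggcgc
Sema3a: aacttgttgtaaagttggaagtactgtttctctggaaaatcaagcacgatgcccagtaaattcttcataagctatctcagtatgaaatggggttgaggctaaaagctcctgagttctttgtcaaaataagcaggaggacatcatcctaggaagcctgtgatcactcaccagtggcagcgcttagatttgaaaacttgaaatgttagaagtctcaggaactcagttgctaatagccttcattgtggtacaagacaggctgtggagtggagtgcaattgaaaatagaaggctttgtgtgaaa
Robo2: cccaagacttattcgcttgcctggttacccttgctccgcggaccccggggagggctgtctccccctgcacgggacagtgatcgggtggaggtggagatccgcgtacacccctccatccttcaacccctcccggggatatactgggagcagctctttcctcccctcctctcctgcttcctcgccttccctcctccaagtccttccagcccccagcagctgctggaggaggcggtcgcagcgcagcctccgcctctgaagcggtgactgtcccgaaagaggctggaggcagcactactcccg
Efna1: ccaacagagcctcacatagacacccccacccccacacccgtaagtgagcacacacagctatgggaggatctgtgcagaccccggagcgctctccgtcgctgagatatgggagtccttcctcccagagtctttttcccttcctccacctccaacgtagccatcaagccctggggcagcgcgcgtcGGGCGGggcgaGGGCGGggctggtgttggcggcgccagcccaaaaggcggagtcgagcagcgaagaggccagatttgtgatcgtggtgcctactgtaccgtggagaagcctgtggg
The box stood in the windows of Slit3 and Efna1 and not in those of Ephb1, Sema3a and Robo2. The window of Slit3 had 78.3% G and C, while that of Sema3a, an internal start within the annotated gene, had 41.3%. Of the 58 members with such a window, 41 (70.7%) held the box, against 48.4% of 16513 coding genes. A run pattern of 4 G tracts of at least 3 bases, spaced by 1 to 7 bases, the form of a G-quadruplex, was present on either strand in 25 (43.1%) against 22.2%. The motif CANNTG was present in 48.3% against 68.4%, TATAAA on either strand in 3.45% against 12.9%, and the median G and C content was 65.2% against 57.0%. These are descriptions of the letters, as binding was not measured.

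In proliferation medium, 1 of the 64 genes passed the test of Atrx-deleted against control lines, Ephb1, which was higher in the Atrx-deleted lines. Ephb1, a receptor of the B ephrins that acts in retinal axons at the optic chiasm of the mouse, is encoded on chromosome 9, 101922128 to 102354693, minus strand (GRCm38, ENSMUSG00000032537). Its level was 23.9, 39.6 and 25.1 TPM in mA16d#4, mA19d#4 and mA19d#7, against 7.99 and 10.7 TPM in Control NSC#1 and Control NSC#2. All 3 Atrx-deleted libraries lay above both control libraries. The means were 29.5 ± 8.75 TPM (SD, n = 3) and 9.32 ± 1.88 TPM (SD, n = 2), a log2 difference of 1.54 on the scale of log2(TPM + 1) (SE 0.271, limma adjusted p = 0.0473). Of all tested genes 0.460% were called (0.262% higher and 0.198% lower). The call was lost without any 1 of the 5 libraries of proliferation medium, either control library or the mA16d#4 library of differentiation medium (limma adjusted p = 0.0570 to 0.544). It was also lost on the deposited log2 scale, without a filter, without the mean-variance trend and with both groups fitted alone, and the log2 difference stayed between 1.31 and 1.73 in 24 alternatives (limma adjusted p = 0.00969 to 0.771).

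Sema5a and Sema5b, membrane-bound ligands that act through Plxna1 and Plxna3 in the mouse retina, and these 2 plexin genes were each higher in every Atrx-deleted library, without passing. Sema5a was at 56.3, 70.6 and 62.6 TPM in the Atrx-deleted lines, against 20.0 and 30.3 TPM in the control lines (log2 difference 1.32, SE 0.288, limma adjusted p = 0.0876). Sema5b was at 141, 98.6 and 77.2 TPM, against 52.1 and 64.4 TPM (log2 difference 0.81, SE 0.269, limma adjusted p = 0.232). Plxna1 was at 54.2, 60.5 and 57.2 TPM, against 35.7 and 40.7 TPM, and Plxna3, which is X-linked, at 34.3, 27.3 and 35.7 TPM, against 19.0 and 21.9 TPM. The spread was small for Plxna1, where the groups were 57.3 ± 3.16 and 38.2 ± 3.55 TPM (SD, n = 3 and 2). The log2 differences were 0.57 and 0.64, with limma adjusted p of 0.203 and 0.233. Plxnb3, a further receptor of Sema5a, was at 60.3, 50.3 and 75.8 TPM in the Atrx-deleted lines and 54.5 and 97.3 TPM in the control lines, where the groups overlapped. The call for Sema5a appeared without the differentiation library of mA19d#4 or of mA19d#7 (limma adjusted p = 0.0273 and 0.0446).

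Other ligands of proliferation medium also lay apart between the groups. Sema6b, a ligand of Plxna4, was at 4.28, 10.4 and 5.14 TPM in the Atrx-deleted lines, against 1.29 and 2.10 TPM in the control lines (log2 difference 1.43, SE 0.428, limma adjusted p = 0.188). Sema4c, a ligand of Plxnb2, was at 52.7, 38.4 and 47.0 TPM, against 22.5 and 25.6 TPM (log2 difference 0.90, SE 0.202, limma adjusted p = 0.0929). Both were higher in every Atrx-deleted library, and mA19d#4 was the highest for Sema6b. Among secreted semaphorins, Sema3b was at 3.29, 8.08 and 6.23 TPM, against 1.82 and 2.31 TPM, and Sema3f, which binds Nrp2, at 15.7, 17.7 and 10.7 TPM, against 4.90 and 6.11 TPM. Sema3d ran the other way, at 2.51, 10.2 and 4.51 TPM in the Atrx-deleted and 12.3 and 11.02 TPM in the control lines. Their log2 differences were 1.10, 1.25 and -1.07, and none passed (limma adjusted p = 0.246, 0.387 and 0.459).

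All 8 ephrin genes had a positive difference in proliferation medium, and none passed. Efna3 was at 12.6, 15.2 and 13.4 TPM in the Atrx-deleted lines, against 5.78 and 5.12 TPM in the control lines (log2 difference 1.19, SE 0.359, limma adjusted p = 0.190). Efna2 was at 26.1, 25.5 and 26.9 TPM, against 12.9 and 16.7 TPM (log2 difference 0.79), and the X-linked Efnb1 at 38.2, 33.6 and 51.7 TPM, against 23.3 and 29.1 TPM (log2 difference 0.62). In these 3 genes the groups did not overlap, whereas in the other 5 they did. Of all tested genes, 38.0% lay apart (17.8% higher in the Atrx-deleted lines), and 7537 of 15660 had a positive difference. Efna1, Efna3 and Efna4 are neighbours on chromosome 3, between 89271733 and 89338028, and had log2 differences of 0.44, 1.19 and 0.28.

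Of the receptors, 14 of 31 had a lower mean in the Atrx-deleted lines, and Robo2 had the smallest p among them. Robo2, a Slit receptor, was at 43.2, 30.3 and 23.7 TPM in the Atrx-deleted lines, against 51.8 and 61.6 TPM in the control lines (log2 difference -0.82, SE 0.238, limma adjusted p = 0.171), with no overlap. Its relative Robo1, the next Robo gene on chromosome 16, was at 56.5, 41.8 and 35.5 TPM, against 44.5 and 57.0 TPM, where the groups overlapped. Epha7 was at 4.78, 1.35 and 0.956 TPM, against 6.59 and 6.46 TPM, so that mA16d#4 stood nearer to the control lines than to the other 2 Atrx-deleted lines (log2 difference -1.33, SE 0.581, limma adjusted p = 0.349). Nrp1 was at 34.2, 13.6 and 16.9 TPM, against 37.3 and 35.0 TPM (log2 difference -0.82), again with mA16d#4 close to the control level.

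Over the 64 genes, 42 had a positive and 22 a negative difference in proliferation medium, with a median of 0.24, against a median of -0.02 for all tested genes. The median stayed between 0.14 and 0.34 with any library or line left out. It was 0.35 for the 33 ligands, 25 of them positive, and 0.08 for the 31 receptors, 17 of them positive. At an unadjusted p under 0.05, 13 of 64 passed, 11 of them positive, where 13.7% of all tested genes did. Of all 15660 tested genes, 1071 passed this limit with a positive and 1077 with a negative difference. The groups lay apart for 25 of 64 genes, where 38.0% of all tested genes did so. Of these 25, 17 lay higher in the Atrx-deleted lines (17.8% of all tested genes) and 8 lower (20.2%). The summed level of 9 astrocyte markers was 3718 to 4717 TPM in the Atrx-deleted and 2113 to 2943 TPM in the control libraries of this medium, with a higher mean for 7 of the 9. The 9 markers of the oligodendrocyte lineage summed to 3199 to 3624 against 4290 to 4479 TPM, and the 10 neuronal markers to 745 to 941 against 677 to 697 TPM. Gene by gene these 2 lists were mixed, with 4 means higher and 5 lower for the oligodendrocyte lineage and 6 higher and 4 lower for neurons. At far lower levels, the microglial markers summed to 2.51 to 6.17 against 1.44 to 2.28 TPM and the fibroblast markers to 3.86 to 8.03 against 1.49 to 2.48 TPM. The part of these lists in the differences of guidance genes was not tested.

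**Figure D2:**
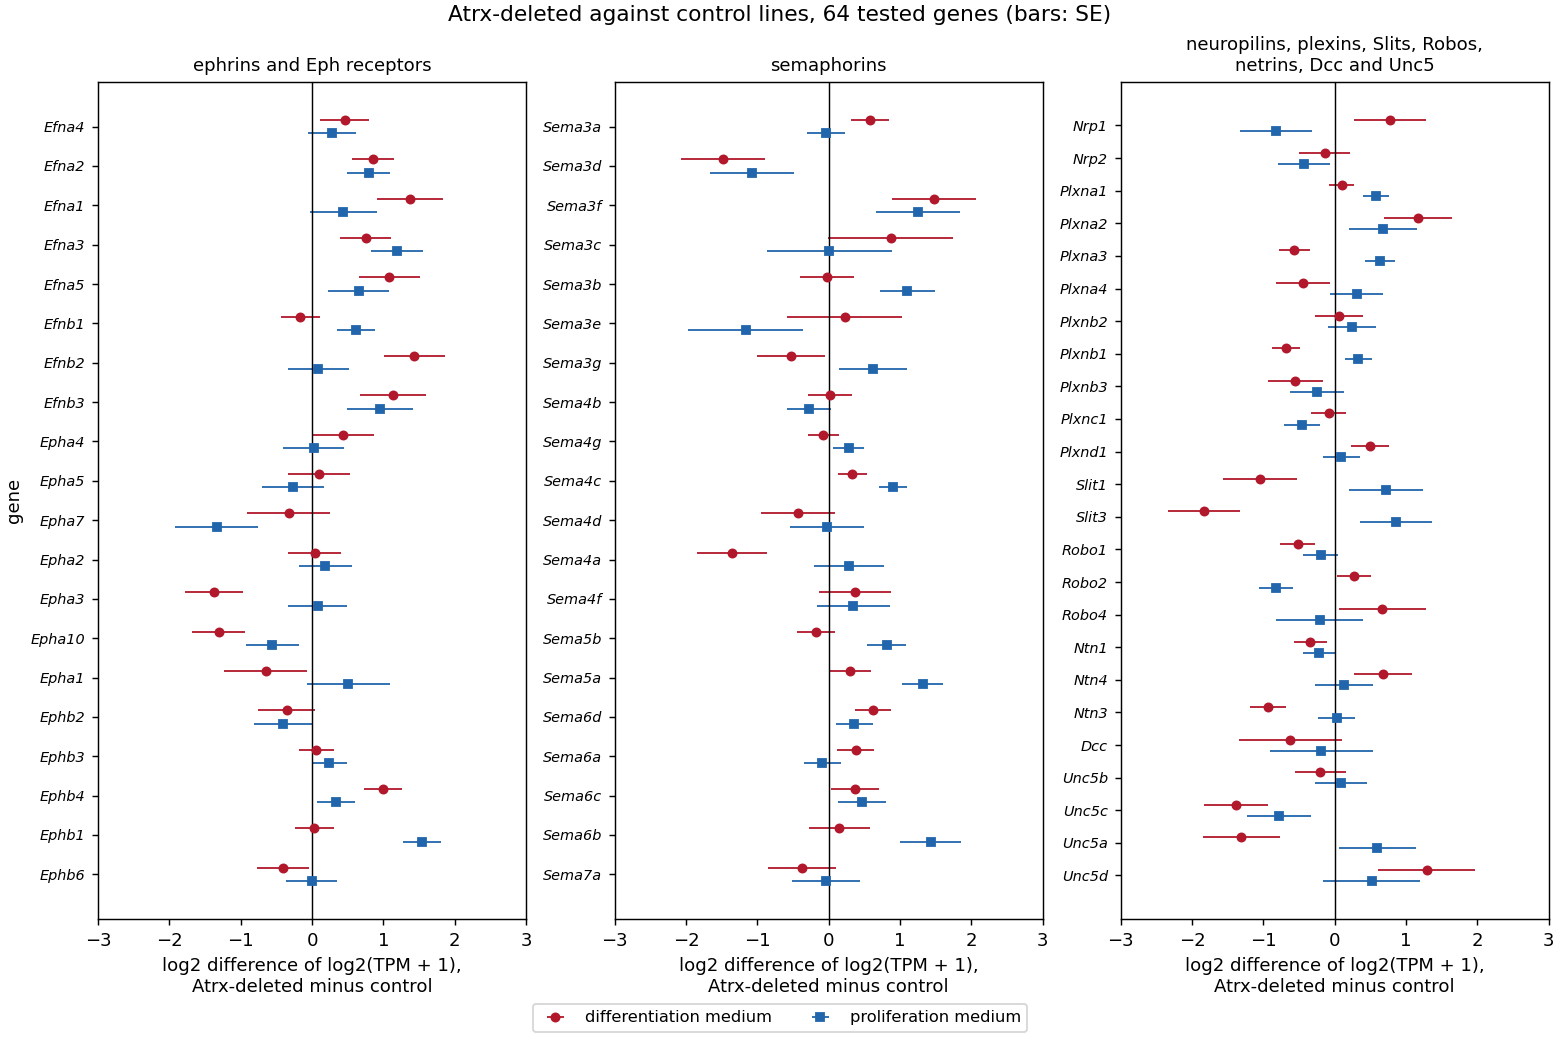
Difference between Atrx-deleted and control lines in log2(TPM + 1) for the 64 tested genes, with points for the estimate, bars for its SE, red circles for differentiation medium and blue squares for proliferation medium. Ephb1, Sema5a and Sema6b lie to the right in proliferation medium and near 0 in differentiation medium, while Slit3, Unc5a and Sema4a lie to the left in differentiation medium alone.

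In differentiation medium, 0 of the 64 genes passed between Atrx-deleted and control lines with limma, where 2.89% of all tested genes did (1.55% higher and 1.33% lower). At an unadjusted p under 0.05, 19 of 64 passed (9 positive and 10 negative), against 20.2% of all tested genes, and the groups lay apart for 29 of 64, against 36.3%. Of these, 16 were higher in the Atrx-deleted lines (18.2% of all tested genes) and 13 lower (18.1%). The smallest adjusted p belonged to Ephb4, a receptor of Efnb2 known from the separation of arteries and veins. Ephb4 was at 25.5, 22.8 and 37.4 TPM in the Atrx-deleted lines, against 14.2 and 12.9 TPM in the control lines (log2 difference 0.99, SE 0.269, limma adjusted p = 0.0792). All 3 Atrx-deleted libraries were above both control libraries.

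Its ligand gene Efnb2 lay on the same side. Efnb2 was at 25.4, 11.3 and 34.1 TPM in the Atrx-deleted lines, against 5.83 and 9.19 TPM in the control lines (log2 difference 1.43, SE 0.426, limma adjusted p = 0.101). The groups did not overlap, with the library labelled mA19d#7 highest and mA19d#4 nearest to the control lines. The log2 difference was 1.11 without the library labelled mA19d#7 in this medium. Without the mA19d#4 library of this medium the log2 difference was 1.87 with a limma adjusted p of 0.0288, and over 24 alternatives the adjusted p ran from 0.0288 to 0.639. Efna1 was at 19.4, 6.21 and 10.2 TPM, against 4.88 and 2.54 TPM (log2 difference 1.37), and Efna2 at 12.2, 16.99 and 14.7 TPM, against 5.20 and 10.9 TPM (log2 difference 0.85). Efna5 was at 3.18, 3.77 and 3.15 TPM, against 0.894 and 1.24 TPM, and Efnb3, a midline cue of the corticospinal tract, at 6.90, 9.10 and 6.26 TPM, against 2.28 and 3.39 TPM. In each of these 4 ephrin genes every Atrx-deleted library lay above both control libraries, with limma adjusted p of 0.139, 0.149, 0.194 and 0.209. Of the 8 ephrin genes 7 had a positive difference, the exception being Efnb1 (-0.16). Among all tested genes, 8041 of 15660 had a positive difference, and 18.2% lay higher with the groups apart.

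Ntn3, Slit3 and several receptor genes had lower means in the Atrx-deleted lines of differentiation medium without passing. Ntn3 was at 14.3, 18.8 and 13.8 TPM in the Atrx-deleted lines, against 33.8 and 27.8 TPM in the control lines (log2 difference -0.94, SE 0.256, limma adjusted p = 0.0805). Slit3 was at 1.18, 0.0530 and 0.757 TPM, against 4.97 and 4.40 TPM (log2 difference -1.83, SE 0.509, limma adjusted p = 0.0848). Both control libraries were above all Atrx-deleted libraries in each case. Of the netrin receptors, Unc5c was at 9.08, 7.94 and 2.81 TPM, against 16.5 and 18.2 TPM (log2 difference -1.39), and Unc5a at 2.88, 5.72 and 0.851 TPM, against 8.72 and 7.42 TPM (log2 difference -1.31). Unc5d lay on the opposite side, at 11.6, 2.53 and 3.56 TPM, against 2.09 and 0.869 TPM (log2 difference 1.29). Dcc was at 36.2, 12.1 and 2.79 TPM in the Atrx-deleted lines and 14.7 and 21.9 TPM in the control lines, so the spread among the Atrx-deleted lines covered the control values.

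Plexin genes diverged among themselves in differentiation medium. Plxnb1, the receptor of Sema4d, was at 153, 107 and 108 TPM in the Atrx-deleted lines, against 204 and 187 TPM in the control lines (log2 difference -0.68, SE 0.195, limma adjusted p = 0.0902). Plxnb1 had a log2 difference of -0.60 without the mA19d#4 library of this medium. Without the mA16d#4 library of this medium it passed (log2 difference -0.85, limma adjusted p = 0.0391, and 0.0333 to 0.597 over 24 alternatives). Plxna3 was at 23.3, 22.7 and 31.6 TPM, against 38.2 and 38.5 TPM (log2 difference -0.57), and Plxna2, a receptor of Sema6a, at 40.3, 34.5 and 116 TPM, against 23.7 and 24.0 TPM (log2 difference 1.16). For Plxna2 the groups did not overlap, though its mean rested on the library labelled mA19d#7. Epha3, a receptor of Efna5, and Epha10, an Eph receptor without kinase activity, were among the low genes of this medium. They were at 0.914, 0.997 and 0.383 TPM and 0.474, 0.397 and 0.144 TPM in the Atrx-deleted lines, against 5.46 and 2.16 TPM and 2.16 and 2.43 TPM in the control lines. The log2 differences were -1.38 and -1.31 (limma adjusted p = 0.101 and 0.0907), and Epha10 passed when no mean-variance trend was used (limma adjusted p = 0.0346, and up to 0.528 over the alternatives).

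Among semaphorins of differentiation medium, Sema3f was at 3.74, 4.66 and 22.4 TPM in the Atrx-deleted lines, against 2.36 and 1.81 TPM in the control lines (log2 difference 1.48, SE 0.591, limma adjusted p = 0.197). Sema3d was at 9.17, 10.1 and 2.29 TPM, against 23.9 and 15.2 TPM (log2 difference -1.49, SE 0.589, limma adjusted p = 0.194), and Sema4a at 2.92, 1.68 and 0.439 TPM, against 3.39 and 8.09 TPM (log2 difference -1.35, SE 0.491, limma adjusted p = 0.161). Without the library labelled mA19d#7 the log2 difference of Sema3f was 0.76, that of Sema3d -0.92 and, among the genes given above, that of Plxna2 0.62 and of Unc5a -0.82 (limma adjusted p = 0.206, 0.281, 0.282 and 0.309). In that fit the log2 difference of Unc5c was -0.95. Sema6d, a ligand of Plxna1, was at 162, 126 and 218 TPM, against 104 and 109.5 TPM (log2 difference 0.62). Ephb1, Sema5a and Sema5b, which lay apart in proliferation medium, had log2 differences of 0.03, 0.30 and -0.18 here, and their groups overlapped. The median difference over the 64 genes was 0.03, with 34 positive and 30 negative. The cycling genes given above were higher in the Atrx-deleted libraries of this medium, while 6 of the 9 astrocyte markers had a higher and 3 a lower mean. The astrocyte markers summed to 4052 to 8387 TPM in the Atrx-deleted and 9121 to 10330 TPM in the control libraries. Without Apoe, a sum chosen after the data were seen, they gave 3075 to 6936 TPM in the Atrx-deleted libraries, 2 of 3 above both control libraries (3690 and 3698 TPM). The 9 markers of the oligodendrocyte lineage summed to 1879 to 4844 TPM in the Atrx-deleted and 3828 to 4186 TPM in the control libraries. Of these 9, 7 had a lower and 2 a higher mean. The 10 neuronal markers summed to 439 to 1224 against 815 to 844 TPM, with 5 means higher and 5 lower. The part of these markers in the differences was not tested.

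**Figure D3:**
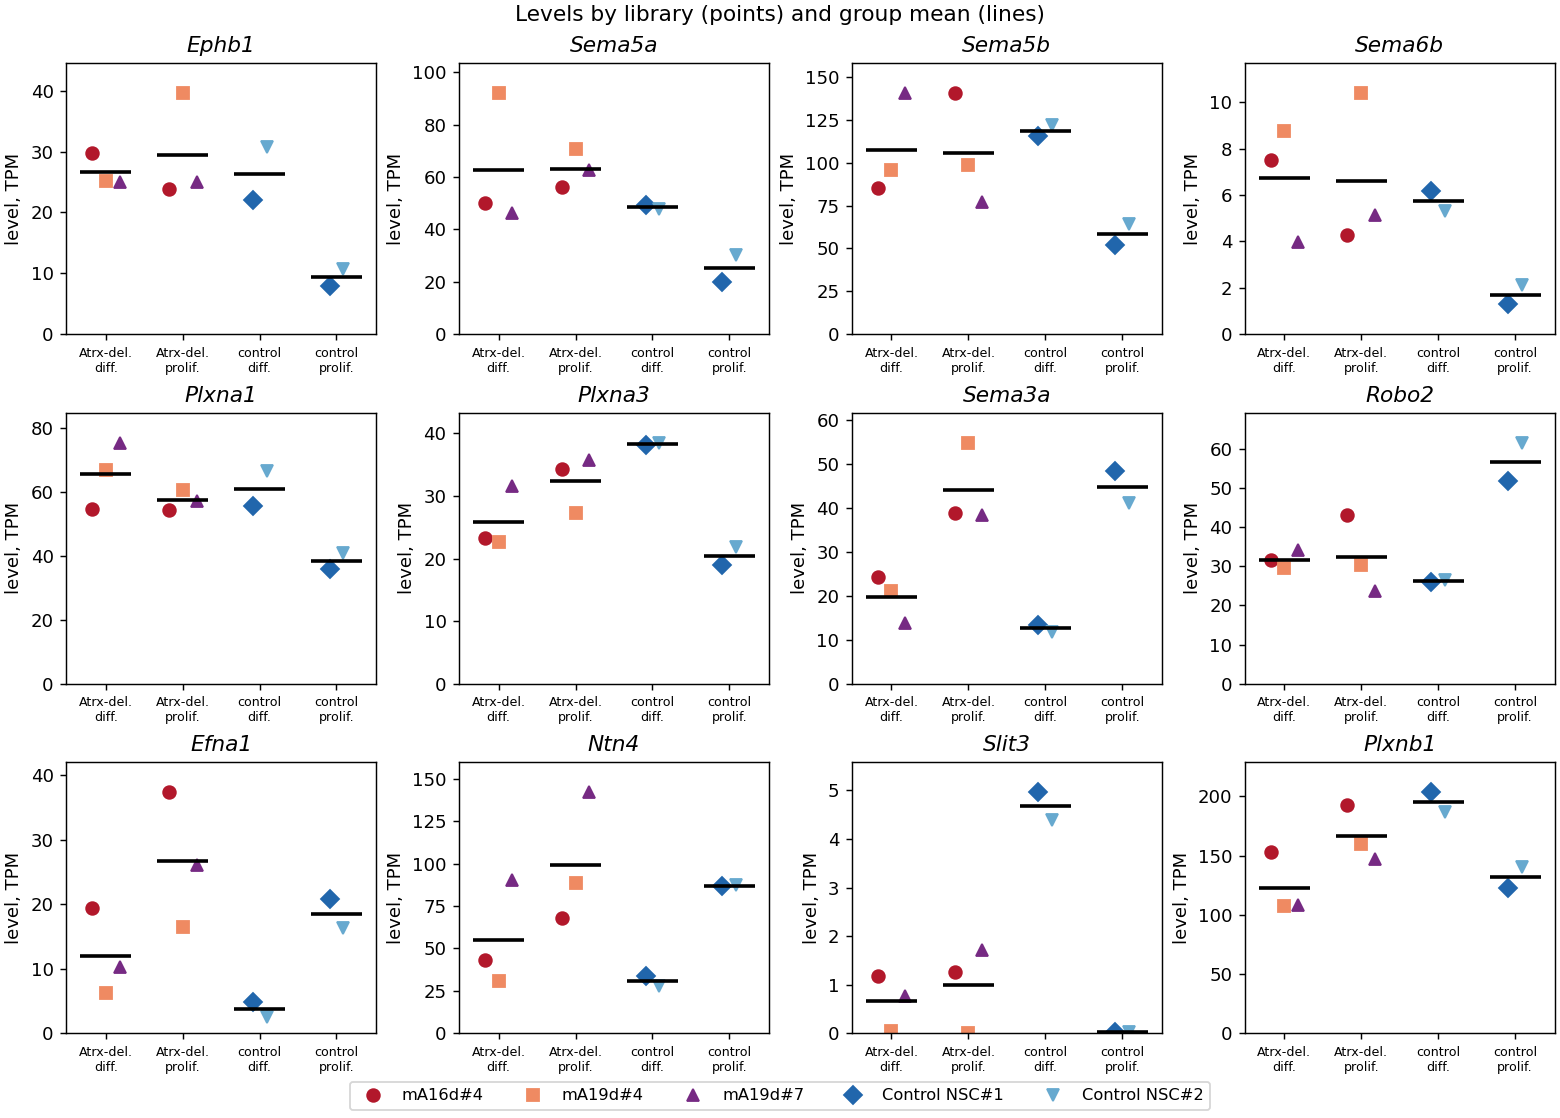
Level in TPM of 12 genes in each library, as points by line, with the mean of each group of libraries as a black line and axes that start at 0. In Ephb1, Sema5a, Sema5b, Sema6b and Plxna1 the 2 control libraries of proliferation medium lie below the other 8, and in Robo2 they lie above them.

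In the control lines, 5 of the 64 genes passed between differentiation and proliferation medium, 2 that rose and 3 that fell, where 4.51% of all tested genes did (1.95% rose and 2.56% fell). Sema3a, a secreted repellent that binds Nrp1 (ENSMUSG00000028883, chromosome 5, 13125414 to 13602565, plus strand), was at 13.4 and 11.8 TPM in differentiation medium in Control NSC#1 and Control NSC#2, against 48.3 and 41.1 TPM in proliferation medium. It fell in both control lines, to a mean of 12.6 ± 1.07 TPM in differentiation medium, against 44.7 ± 5.07 TPM in proliferation medium (SD, n = 2 each), with a log2 difference of -1.75 (SE 0.289, limma adjusted p = 0.0119). Efna1 (ENSMUSG00000027954, chromosome 3, 89271733 to 89281142, minus strand) was at 4.88 and 2.54 TPM, against 20.7 and 16.3 TPM (log2 difference -2.09, SE 0.511, limma adjusted p = 0.0482). Robo2 (ENSMUSG00000052516, chromosome 16, 73891839 to 74411825, minus strand) was at 25.9 and 26.4 TPM, against 51.8 and 61.6 TPM (log2 difference -1.08, SE 0.260, limma adjusted p = 0.0457). Both fell in each control line.

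Ephb1 and Slit3 rose in the control lines. Ephb1 was at 22.0 and 30.7 TPM in differentiation medium, against 7.99 and 10.7 TPM in proliferation medium (log2 difference 1.40, SE 0.297, limma adjusted p = 0.0291). Slit3 (ENSMUSG00000056427, chromosome 11, 35121224 to 35708507, plus strand) was at 4.97 and 4.40 TPM, against 0.0193 and 0.0126 TPM (log2 difference 2.48, SE 0.558, limma adjusted p = 0.0360). Its level in proliferation medium was near the floor of the table, so its difference on this scale depends on the pseudocount, and with a pseudocount of 0.1 it no longer passed (limma adjusted p = 0.0733). All 5 calls were lost without any single control library, when 0 of the 64 genes passed and the lone library left was assumed to vary like the other groups. Efna1 was also lost without the proliferation library of mA16d#4, mA19d#4 or mA19d#7 (limma adjusted p = 0.0510, 0.0573 and 0.0747), and Robo2 without the mA19d#4 library of proliferation medium or the mA16d#4 library of differentiation medium (0.0725 and 0.0571). Slit3 was lost without both libraries of mA16d#4 (limma adjusted p = 0.0534). With the cell line as a block Robo2 no longer passed (limma adjusted p = 0.0750) and Ntn4 did (0.0315).

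The genes next to the threshold in the control lines followed both directions. Plxna3 was at 38.2 and 38.5 TPM in differentiation medium, against 19.0 and 21.9 TPM in proliferation medium (log2 difference 0.88, SE 0.233, limma adjusted p = 0.0622). Sema5b was at 115 and 122 TPM, against 52.1 and 64.4 TPM (log2 difference 1.02, SE 0.295, limma adjusted p = 0.0804), and Plxna1 at 55.4 and 66.5 TPM, against 35.7 and 40.7 TPM (log2 difference 0.66, SE 0.196, limma adjusted p = 0.0875). Sema5a was at 49.2 and 47.8 TPM, against 20.0 and 30.3 TPM (log2 difference 0.95, SE 0.316, limma adjusted p = 0.120). Each of these 4 genes lay higher in both control libraries of differentiation medium than in either of proliferation medium. The control libraries of proliferation medium also serve in the comparison of Atrx-deleted with control lines in proliferation medium, so both comparisons share them. Farther from the threshold, Sema6b, Unc5a, Unc5c and Dcc had log2 differences of 1.33, 1.34, 1.37 and 1.35, also with the groups apart. Their limma adjusted p was 0.139, 0.241, 0.147 and 0.398. Sema3c and Sema4a had log2 differences of 1.59 and 1.11, again apart (limma adjusted p = 0.408 and 0.290). Of all tested genes, 61.3% lay apart in this comparison.

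On the lower side, Ntn4, a netrin related to laminins, was at 33.6 and 27.9 TPM in differentiation medium, against 86.9 and 87.1 TPM in proliferation medium (log2 difference -1.48, SE 0.446, limma adjusted p = 0.0898). Sema6a was at 39.4 and 47.4 TPM, against 79.1 and 91.6 TPM (log2 difference -0.96, SE 0.285, limma adjusted p = 0.0858), and Ephb4 at 14.2 and 12.9 TPM, against 27.7 and 27.4 TPM (log2 difference -0.97, SE 0.294, limma adjusted p = 0.0908). Nrp1 was at 15.1 and 13.0 TPM, against 37.3 and 35.0 TPM (log2 difference -1.31), and this binding subunit for Sema3a thus had a lower mean in the same medium as its ligand. Plxnb3 was at 33.2 and 37.8 TPM, against 54.5 and 97.3 TPM (log2 difference -1.02), and Sema3f at 2.36 and 1.81 TPM, against 4.90 and 6.11 TPM (log2 difference -1.08). For Nrp1, Plxnb3 and Sema3f the limma adjusted p was 0.219, 0.202 and 0.408.

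Over the 64 genes, 33 had a positive and 31 a negative difference in the control lines, with a median of 0.09, against -0.01 for all tested genes. At an unadjusted p under 0.05, 22 passed, where 19.9% of all tested genes did, and the groups lay apart for 47 of 64, where 61.3% did. Of these, 24 lay higher in differentiation medium (29.6% of all tested genes) and 23 lower (31.6%). Without the library labelled mA19d#7 in differentiation medium, which enters only through the shared estimate of spread, 11 members passed. In that fit 1450 of all tested genes were called, in place of 706. The summed level of 5 cycling genes was 75.7 to 80.7 TPM in the control libraries of differentiation medium and 489 to 797 TPM in those of proliferation medium, and the 9 astrocyte markers summed to 9121 to 10330 TPM against 2113 to 2943 TPM, and without Apoe to 3690 to 3698 against 1754 to 2190 TPM. The neuronal markers summed to 815 to 844 against 677 to 697 TPM and those of the oligodendrocyte lineage to 3828 to 4186 against 4290 to 4479 TPM. In differentiation medium 6 astrocyte means were higher and 3 lower, 8 neuronal means higher and 2 lower, and 5 oligodendrocyte means higher and 4 lower. Their part in the responses of guidance genes was not tested.

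In the Atrx-deleted lines, 0 of the 64 genes passed between differentiation and proliferation medium with limma, where 0.0830% of all tested genes did (0.0128% rose and 0.0702% fell). At an unadjusted p under 0.05, 16 passed, 14 of them lower in differentiation medium, where 14.8% of all tested genes did. Of all 15660 tested genes, 1148 passed this limit as lower and 1171 as higher. Sema3a had the smallest p, as it did in the control lines. It was at 24.3, 20.98 and 13.8 TPM in differentiation medium in mA16d#4, mA19d#4 and mA19d#7, against 38.7, 54.8 and 38.5 TPM in proliferation medium (log2 difference -1.13, SE 0.236, limma adjusted p = 0.0946). Every library of differentiation medium lay below every one of proliferation medium.

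Efnb1, Plxnb3 and Efna2 had the same arrangement in the Atrx-deleted lines. Efnb1 was at 22.0, 26.4 and 15.4 TPM in differentiation medium, against 38.2, 33.6 and 51.7 TPM in proliferation medium (log2 difference -0.93, SE 0.239, limma adjusted p = 0.141). Plxnb3 was at 42.7, 18.8 and 16.6 TPM, against 60.3, 50.3 and 75.8 TPM (log2 difference -1.33, SE 0.342, limma adjusted p = 0.142), and Efna2 at 12.2, 16.99 and 14.7 TPM, against 26.1, 25.5 and 26.9 TPM (log2 difference -0.81, SE 0.267, limma adjusted p = 0.215). Sema4c was at 29.1, 32.2 and 26.6 TPM, against 52.7, 38.4 and 47.0 TPM (log2 difference -0.63, SE 0.181, limma adjusted p = 0.173), also with no overlap. Ntn1 was at 362, 218 and 294 TPM, against 367, 449 and 449 TPM (log2 difference -0.56), and Unc5b at 4.60, 5.32 and 9.88 TPM, against 10.7, 12.3 and 15.9 TPM (log2 difference -0.92). The libraries of both media lay apart for each of these genes, and for 14 of the 64 in all, against 16.5% of all tested genes. Of the 14, 2 lay higher in differentiation medium (8.65% of all tested genes) and 12 lower (7.85%).

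Sema3c, a secreted semaphorin that acts in heart and vessel development, had the largest positive difference in the Atrx-deleted lines. It was at 4.02, 7.16 and 56.1 TPM in differentiation medium, against 2.38, 2.14 and 0.338 TPM in proliferation medium (log2 difference 2.46, SE 0.781, limma adjusted p = 0.205). Without the library labelled mA19d#7 in differentiation medium the log2 difference was 1.40 (limma adjusted p = 0.152). The groups did not overlap. Epha7 was at 13.1, 2.81 and 7.72 TPM, against 4.78, 1.35 and 0.956 TPM (log2 difference 1.38), and Efna1 at 19.4, 6.21 and 10.2 TPM, against 37.3, 16.4 and 26.1 TPM (log2 difference -1.15), each lying on 1 side in all 3 lines when compared line by line. Epha10 was at 0.474, 0.397 and 0.144 TPM, against 1.37, 2.75 and 1.44 TPM (log2 difference -1.07, limma adjusted p = 0.198). Without the library labelled mA19d#7 in differentiation medium, 2 members passed, Ntn4 and Sema3f, and 348 of all tested genes did in place of 13. Over the 64 genes 25 had a positive and 39 a negative difference, with a median of -0.23, against 0.01 for all tested genes. The cycling genes summed to 218 to 518 TPM in differentiation medium, against 532 to 807 TPM in proliferation medium, and their part in these differences was not tested.

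Whether the medium acted differently in Atrx-deleted and control lines was tested as an interaction. It draws on the same libraries as the comparisons above, the control libraries of proliferation medium among them, so it is not independent of them. With limma, 0 of 64 genes passed, where 0.00639% of all tested genes (1 gene) did, and 14 of 64 had an unadjusted p under 0.05, where 7.02% of all tested genes did. Of these 14, 11 had a negative value, meaning a lower response in the Atrx-deleted lines. Of all 15660 tested genes, 520 passed this limit with a negative and 579 with a positive value. Plxna3 had the smallest p. Its response per line, in log2(TPM + 1), was -0.54, -0.26 and -0.17 in mA16d#4, mA19d#4 and mA19d#7, against 0.97 and 0.79 in Control NSC#1 and Control NSC#2 (interaction -1.20, SE 0.301, limma adjusted p = 0.399). Every Atrx-deleted line was lower and both control lines higher in differentiation medium. Such opposite responses in all lines were present in 7 of the 64 genes, against 4.36% of all tested genes.

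Ephb1 had the next smallest p, followed by Slit3 and Plxnb1. The response of Ephb1 was 0.30, -0.63 and -0.01 in the Atrx-deleted lines, against 1.35 and 1.44 in the control lines (interaction -1.51, SE 0.383, limma adjusted p = 0.399). That of Plxnb1 was -0.33, -0.57 and -0.44, against 0.73 and 0.41 (interaction -1.02, SE 0.275, limma adjusted p = 0.429). Slit3, Sema5a and Sema5b had interactions of -2.69, -1.02 and -0.99, and Ntn3, Epha3 and Unc5a of -0.96, -1.45 and -1.91. Robo2 had the opposite sign, with a response of -0.44, -0.03 and 0.51 in the Atrx-deleted lines, against -0.97 and -1.19 in the control lines (interaction 1.09, limma adjusted p = 0.501). The level of Robo2 in the Atrx-deleted lines was within 23.7 to 43.2 TPM in both media, whereas the control lines held 25.9 and 26.4 TPM in differentiation and 51.8 and 61.6 TPM in proliferation medium.

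Across the 64 genes, the responses of the Atrx-deleted and of the control lines, which share no library, had a Pearson correlation of 0.42 and the same sign for 40 genes (62.5%). Over all 15660 tested genes the correlation was 0.47 and the sign was shared by 66.5%. The points share the normalisation of the table, and genes are not independent replicates. The median size of the response, regardless of sign, was 0.44 in the Atrx-deleted and 0.62 in the control lines for guidance genes, and 0.27 and 0.36 for all tested genes.

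**Figure D4:**
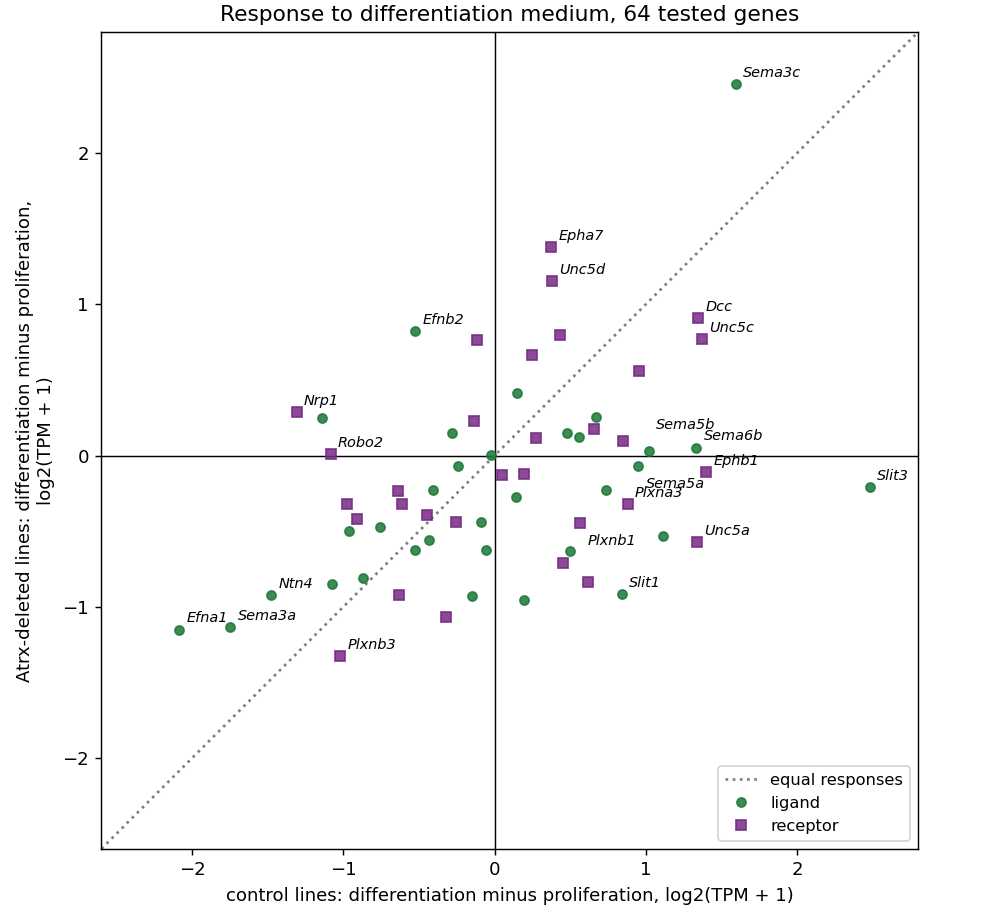
Response of the 64 tested genes to differentiation medium, as the difference in log2(TPM + 1) in the Atrx-deleted lines (vertical axis) against the control lines (horizontal axis), with circles for ligands, squares for receptors and a dotted line for equal responses. Sema3a, Efna1, Ntn4 and Plxnb3 lie low on both axes, while Ephb1, Slit3, Sema5a and Sema5b lie to the right at a height near 0.

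The naming rule left out 16 tested members, picked neither in a comparison nor as the leader of a family. For Atrx-deleted against control lines they had log2 differences of -1.17 to 0.65 in proliferation medium and -0.65 to 1.08 in differentiation medium. Between differentiation and proliferation medium theirs were -0.96 to 0.80 in the Atrx-deleted and -1.14 to 0.96 in the control lines. Their smallest limma adjusted p over these comparisons was 0.194.

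The library labelled mA19d#7 in differentiation medium was the highest or lowest of the 10 for 23 of the 64 genes (35.9%), against 26.97% of all tested genes. It held Sema3c at 56.1 TPM, where the other 9 libraries had at most 7.16 TPM. It was also the highest for Sema6d, Nrp1 and Efnb2, and for Sema3e, which binds Plxnd1 directly. It was the lowest for Dcc, where mA16d#4 in differentiation medium was the highest, and for Sema4a and Slit1. In all it was the highest for 9 members and the lowest for 14.

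Other genes of the pathway were described from 2 lists, which were chosen with earlier results of these data known. Of 27 tested other cues, coreceptors and adhesion partners, 0 passed with limma between Atrx-deleted and control lines in proliferation medium, where 0.460% of all tested genes did and 6 of the 27 had an unadjusted p under 0.05 (13.7% of all tested genes). In differentiation medium 1 of the 27 was lower in the Atrx-deleted lines, where 2.89% of all tested genes were called, so the share is near that of the table. That gene was Rgma, a ligand of the Dcc relative Neo1, which was at 193, 198 and 189.8 TPM in the Atrx-deleted lines, against 338 and 364 TPM in the control lines (log2 difference -0.85, SE 0.177, limma adjusted p = 0.0352). In the control lines 3 of the 27 rose and 1 fell in differentiation medium, where 1.95% of all tested genes rose and 2.56% fell. Neo1 itself, Nell2, a ligand of Robo3, and Nfasc, a cell adhesion gene of the axon initial segment, rose, with log2 differences of 0.79, 2.16 and 3.66. Cdon, a coreceptor of hedgehog ligands, fell (-1.88).

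Of 52 tested intracellular effectors, 0 passed with limma between the lines in proliferation medium (0.460% of all tested genes), with 11 of the 52 at an unadjusted p under 0.05 (13.7%). In differentiation medium 1 was higher and 3 were lower in the Atrx-deleted than in the control lines, where 1.55% of all tested genes were higher and 1.33% lower. Srgap2, which with Srgap1 encodes GTPase-activating proteins that bind Robo receptors, was at 113, 156 and 151 TPM in the Atrx-deleted lines, against 61.0 and 72.5 TPM in the control lines (log2 difference 1.05, SE 0.176, limma adjusted p = 0.0184). Srgap1 was at 26.7, 23.2 and 24.7 TPM, against 50.5 and 41.9 TPM (log2 difference -0.86, SE 0.195, limma adjusted p = 0.0460). These paralogues differed in opposite directions, with no overlap between the groups for either. Mical2, which oxidises actin, and Arhgef12, whose product is bound by plexins of class B, were also lower in the Atrx-deleted lines (-1.23 and -0.84). In the control lines Srgap1, Mical2 and the Eph effector gene Ngef rose in differentiation medium (1.57, 1.50 and 1.82), and Srgap2 fell (-1.24), 3 and 1 of the 52, against 1.95% and 2.56% of all tested genes. In the Atrx-deleted lines none of either list passed between the media with limma, where 0.0830% of all tested genes did. At an unadjusted p under 0.05 there were 7 of 27 and 12 of 52, where 14.8% of all tested genes passed. The comparisons of the lines in differentiation medium and of the media in the control lines share the control libraries of differentiation medium.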

How the data were processed

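RNA levels were available for 21101 genes in 10 libraries of total RNA. The values are log2 TPM as deposited by the authors, whose reads were aligned with STAR to mm10, per the submitters' processing notes. For versions, annotation, strand use and the source of TPM: not given in the sources used here. All libraries hold the same sorted values, so they were quantile-normalised before deposit, and counting depth and a change in total RNA cannot be seen. The lowest value is -8, and a library sums to 997524 TPM. Since the planned test was for linear TPM, values were back-transformed to it.

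log2(TPM + 1) of 15660 genes (at least 1 TPM in at least 2 libraries) entered limma 3.58.1 under R 4.3.3 as 4 group means (trend of variance on mean allowed), leaving 6 residual degrees of freedom. Differences on this scale understate changes of low genes. Benjamini-Hochberg adjusted p covers all tested genes, with a threshold of 0.05. The script was tested on simulated data.

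The members and lists were chosen with earlier results of these data known. Genes were named when they passed, were among the 10 smallest p of a comparison, led their family, or had a mean of at least 5 TPM, a log2 difference of at least 1 and groups apart. Pathway genes were named when they passed. The line labels pair the media. Deviations from the group mean correlated across genes at 0.159, 0.404 and -0.194 within mA16d#4, mA19d#4 and mA19d#7, and 0.0624 within the control lines. Alternatives were 2 further scales, filters and spread estimates, group weights, groups fitted alone, the line as a block, and leaving out libraries and lines. Positions are from GENCODE M21 (GRCm38, the assembly also called mm10).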

Additional observations from a re-analysis of the deposited data

Results flagged for a closer look

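In 5 genes of at least 5 TPM in some group, every Atrx-deleted line responded to differentiation medium in the direction opposite to both control lines. The interaction, tested with limma, passed for none of them. Of the 64 tested members 7 had such opposite responses, against 4.36% of all tested genes. The difference of responses (Atrx-deleted minus control, log2) was -1.20 for Plxna3 (limma adjusted p = 0.399) and -1.02 for Plxnb1 (0.429). For Efnb2 it was 1.35 (limma adjusted p = 0.703), with responses of 0.64, 0.11 and 1.72 in mA16d#4, mA19d#4 and mA19d#7, against -0.75 and -0.30 in Control NSC#1 and Control NSC#2. Plxnc1 and Robo1 had smaller differences of 0.37 and -0.32 (limma adjusted p = 0.885 and 0.906). Their opposite directions rested on small responses in some lines. The response of Plxnc1 was 0.09 in mA19d#4 and 0.03 in mA19d#7, and that of Robo1 was 0.03 in Control NSC#2.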

How the results depend on the processing

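Among the 69 pairs of a gene and a comparison picked by the naming rule, direction held in every alternative run, and other differences were not recomputed. The rule picked pairs by small p or by groups apart in these same data, so a held direction was largely set in advance. The count of axon guidance genes past the threshold in proliferation medium (Atrx-deleted against control, 1 as reported) was 0 on the deposited log2 scale, without a filter, without the mean-variance trend and with the groups fitted alone, and 5 with one weight per group. The calls over all tested genes in these fits were 39, 37, 48, 62 and 672, against 72 as reported. In differentiation medium (0 as reported) it was 1 without the trend (380 of all tested genes, against 452). Between the media in the control lines (5 as reported) it was 1 without a filter (Sema3a), 3 without the trend (Ephb1, Sema3a and Slit3), 21 with one weight per group and 16 with the groups fitted alone. The calls over all tested genes were then 495, 561, 2984 and 2080, against 706 as reported. The cause was not tested.

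Leaving out 1 library or line at a time gave 0 to 2 genes for Atrx-deleted against control in proliferation medium, 0 to 1 in differentiation medium, 0 to 2 between the media in Atrx-deleted lines, 0 to 11 in control lines, and 0 for the interaction. Over all tested genes these counts were 0 to 250, 1 to 939, 0 to 348, 0 to 1450 and 0 to 3, in the same order. With the cell line as a block, whose pairing comes from the line labels, 0 genes passed in the Atrx-deleted lines, 5 in the control lines and 0 in the interaction. As a random term (correlation 0.0515) it gave 1, 0, 0, 5 and 0 in the order above. Beyond Robo2 and Ntn4 in the control lines, the fixed block changed no other call of a named gene. A fixed line term cannot give the comparison of Atrx-deleted with control lines.

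Groups hold 2 or 3 lines, and depth is unknown. The control lines varied less than the Atrx-deleted lines, with a median SD of log2(TPM + 1) over members of 0.394 and 0.363 in the Atrx-deleted lines (differentiation and proliferation medium) and 0.143 and 0.206 in the control lines, and a shared spread does not reflect this.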
